A study of Homo sapiens with 6 samples.

Results

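The regions described here are the accessible sites of fixed GM12878 cells that lay at CpG-poor starts of protein-coding genes. A peak is a stretch of the genome where the fragments of an ATAC-seq library pile up above the local background. Overlapping or adjoining peaks of 6 libraries were merged into 56447 regions. A region was a member where it overlapped the 500 bp on either side of the start of an autosomal protein-coding gene in hg19 (GENCODE version 44) and where the CpG ratio of that 1 kb window was below 0.4. The CpG ratio is the number of CpG dinucleotides divided by the number that the C and G content of the window would give. By this rule 474 regions were members, at 465 of 5629 CpG-poor gene starts. The comparison class had a ratio of 0.6 or more, with 11581 gene starts and 7960 regions, and 12 regions touched a start of each class. The remaining 2019 of the 19229 gene starts had a ratio between these limits. The limit of 0.4 fell within a continuous range. CACNB3, with a ratio of 0.399861, was the last start inside, and DNASE1L2, at 0.400023, was the first one outside. Neither had a peak.

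GM12878 is a human lymphoblastoid line, that is, B cells immortalized with Epstein-Barr virus. All cells were fixed in 1% PFA and transposed for 30 min with Tn5, the transposase that inserts sequencing adapters into open chromatin. The transposed DNA was then released from the fixed protein by reverse crosslinking overnight at 65 °C with proteinase K, under 3 protocols of 2 libraries. The SDS group was reverse crosslinked in a buffer with SDS and cleaned up before PCR. The nonSDS purified group had a buffer free of SDS and the same clean-up. The nonSDS unpurified group had that buffer too, and the PCR mix was added straight to it. No untreated or unfixed library was part of these 6. Nothing in the labels says that the replicates came from separate cultures, so the p values measure the spread between libraries of 1 cell line, which may be technical. The libraries held between 30136 and 38023 peaks. Their totals of reads are not known from the peak lists, but the number of reads stacked at each summit could be solved from the listed fold enrichment and p value, and its median was 20 to 22 in each library.

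CpG dinucleotides are rare in most of the human genome because methylated cytosine mutates readily, and they persist in CpG islands, which cover the promoters of most widely expressed genes and are usually free of methylation and of stable nucleosomes. CpG-poor promoters more often belong to genes used in 1 tissue or after a stimulus, such as antigen receptors, cytokines, globins and odorant receptors. Their accessibility depends more on sequence-specific factors, which in B cells include PU.1, OCT2, EBF1, RUNX proteins and, after interferon or NF-kB signalling, IRF proteins and NF-kB.

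The following sequences are from GRCh37, the same build as hg19, on the strand of the gene and 5′ to 3′, with every CpG in capitals. They show the 5 members with the highest mean −log10 q among those called in all 6 libraries and at no CpG-rich gene start. Beside them stands FAM72D, a CpG-rich start with a mean −log10 q of 108.0. The q value is the p value of a peak corrected for the number of positions tested, so a higher −log10 q is a stronger peak.
AKTIP, upstream of the gene start, chr16:53538324-53538523, - strand: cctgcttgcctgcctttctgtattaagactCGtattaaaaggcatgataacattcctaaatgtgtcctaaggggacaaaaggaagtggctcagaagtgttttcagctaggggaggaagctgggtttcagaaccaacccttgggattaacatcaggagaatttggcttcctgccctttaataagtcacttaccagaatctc
AKTIP, at the summit, chr16:53537269-53537468, - strand: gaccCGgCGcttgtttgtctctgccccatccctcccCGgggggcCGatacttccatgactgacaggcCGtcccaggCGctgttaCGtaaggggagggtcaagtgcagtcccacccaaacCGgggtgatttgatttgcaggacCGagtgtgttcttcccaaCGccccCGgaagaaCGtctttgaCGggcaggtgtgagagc
LINS1, at the summit, chr15:101142544-101142743, - strand: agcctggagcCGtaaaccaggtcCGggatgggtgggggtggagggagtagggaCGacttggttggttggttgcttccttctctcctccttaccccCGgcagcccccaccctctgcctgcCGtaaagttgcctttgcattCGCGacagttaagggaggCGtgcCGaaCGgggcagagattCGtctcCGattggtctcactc
ORC4, at the summit, chr2:148778381-148778579, - strand: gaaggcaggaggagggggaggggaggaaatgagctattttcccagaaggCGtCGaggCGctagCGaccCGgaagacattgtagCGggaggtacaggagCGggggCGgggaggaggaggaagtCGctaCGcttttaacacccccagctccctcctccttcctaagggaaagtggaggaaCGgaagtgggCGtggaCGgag
PICALM, upstream of the gene start, chr11:85780925-85781124, - strand: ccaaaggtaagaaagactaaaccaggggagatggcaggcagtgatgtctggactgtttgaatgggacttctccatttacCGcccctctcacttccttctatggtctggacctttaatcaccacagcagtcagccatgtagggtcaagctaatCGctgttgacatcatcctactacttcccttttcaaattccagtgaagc
PICALM, at the summit, chr11:85780171-85780370, - strand: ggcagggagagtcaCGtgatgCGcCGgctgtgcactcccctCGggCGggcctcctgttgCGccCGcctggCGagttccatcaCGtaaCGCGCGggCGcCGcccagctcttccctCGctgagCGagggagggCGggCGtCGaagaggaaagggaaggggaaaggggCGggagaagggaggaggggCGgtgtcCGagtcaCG
DAPP1, upstream of the gene start, chr4:100737784-100737983, + strand: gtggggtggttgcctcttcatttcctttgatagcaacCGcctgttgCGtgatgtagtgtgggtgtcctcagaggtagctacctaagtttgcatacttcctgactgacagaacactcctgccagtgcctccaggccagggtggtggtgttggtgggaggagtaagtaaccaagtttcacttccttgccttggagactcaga
FAM72D, upstream of the gene start, chr1:143913170-143913369, - strand: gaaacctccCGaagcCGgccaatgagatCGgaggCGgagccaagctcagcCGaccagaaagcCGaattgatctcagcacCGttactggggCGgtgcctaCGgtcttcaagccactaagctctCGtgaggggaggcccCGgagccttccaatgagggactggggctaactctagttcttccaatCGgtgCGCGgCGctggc

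The 200 bp upstream of the AKTIP start held 1 CpG, while the 200 bp around the summit of its peak held 13. At PICALM the corresponding numbers were 2 and 23. At DAPP1 the 200 bp before the start, which take in the summit, held 2 CpGs. The 200 bp before the FAM72D start held 15, but its summit lay upstream of them, at a median of -273.5 bp. FAM72D belongs to a family of nearly identical copies, so its peak cannot be assigned to 1 copy with certainty. Thus among the strongest members the rule brought together peaks of unlike composition, which are described first.

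Of the 10 members with the highest mean −log10 q, 5 had their summit in CpG-rich sequence beyond the window of the gene start. The other 5 had it inside the window, 4 in CpG-poor sequence and 1, LXN, in sequence between the limits. AKTIP encodes a protein that binds the kinase AKT. Its region, chr16:53536723-53537858, had −log10 q values of 61.7 and 57.8 in the SDS libraries, 62.0 and 58.0 in the nonSDS purified libraries and 66.7 and 62.6 in the nonSDS unpurified libraries, with 90 to 103 reads at the summit. All 6 values lay close together, and no other member was stronger on average (61.5 ± 3.29, SD, n = 6). The annotated gene start had a ratio of 0.377, but the summit lay 955 bp downstream of it, in an intron of 1 AKTIP transcript. The 500 bp around the summit had a ratio of 0.703, and the nearest start of a coding AKTIP transcript, 212 bp from the summit, had one of 0.708.

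LINS1, ORC4, PICALM and ABHD2 also had their summit downstream of the window in CpG-rich sequence. LINS1, the human homologue of the fly gene lines, had −log10 q values of 61.9 and 48.5 with SDS, 65.0 and 43.8 with nonSDS purified and 68.0 and 50.8 with nonSDS unpurified buffer. In each protocol replicate 1 was higher than replicate 2. Its summit lay 792 bp downstream of the LINS1 start outside any coding transcript, and 151 bp from a start of ASB7, the neighbouring gene, whose window had a ratio of 0.590. At ORC4, a subunit of the origin recognition complex, the values were 50.3, 46.2, 65.3, 44.4, 47.8 and 45.6 in the same order, so that replicate 1 of the nonSDS purified protocol stood above the rest. The ORC4 summit lay 693 bp downstream and 100 bp from a start of MBD5, whose window had a ratio of 0.545. These nearest starts of LINS1 and ORC4 were thus below the CpG-rich limit. A CpG-rich coding transcript start did lie 1046 bp from the LINS1 start and 843 bp from the ORC4 start. PICALM, an adaptor of clathrin-mediated endocytosis, ranged from 41.6 to 55.7 with its summit at 654 bp and 131 bp from another PICALM start, with a ratio of 0.730. ABHD2, a lipid hydrolase, ranged from 31.9 to 48.1 with its summit at 857 bp and 106 bp from another ABHD2 start, with one of 0.689. The summit windows of these 4 had ratios of 0.616, 0.715, 0.751 and 0.697.

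DAPP1 encodes an adaptor that couples phosphoinositide signals to the B cell receptor. Its region, chr4:100737594-100738267, had −log10 q values of 41.6 and 52.1 in the SDS libraries, 46.1 and 34.6 in the nonSDS purified libraries and 53.3 and 31.3 in the nonSDS unpurified libraries. The lowest and the highest value belonged to the same protocol. The summit lay at -72 bp from the start, upstream of it, in sequence with a ratio of 0.199, and the nearest CpG-rich coding transcript start was 77549 bp away. LXN, a carboxypeptidase inhibitor, ranged from 35.2 to 50.3 with the summit at -20 bp, inside an intron of GFM1 and in sequence with a ratio of 0.478. CEP128, a centriole protein, ranged from 28.7 to 49.8 with the summit at -167 bp, inside an intron of TSHR. AL590560.1 ranged from 32.4 to 41.0, with its summit at -186 bp. S100A11, a calcium-binding protein, ranged from 28.1 to 46.6 with the summit at -258 bp from the gene start. That gene record begins far from the coding transcripts, since the nearest coding transcript start was 11161 bp from the summit.

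Of the next members without a CpG-rich transcript start within 1 kb, 4 are given here. SLC7A11, the cystine transporter, had a mean −log10 q of 34.2 ± 3.34, and FMO4, a flavin monooxygenase, one of 33.1 ± 4.43. CD74, the invariant chain that accompanies MHC class II, had 32.2 ± 6.04, and GCSAM, a signalling protein of germinal centre B cells, had 32.1 ± 2.07 (SD, n = 6 each). These 4 were named after their values were seen. At the other end of the members called in all 6 libraries were CD80, C16orf54 and AHNAK. CD80, the costimulatory ligand on antigen-presenting cells, had values of 11.1 and 3.97 with SDS, 4.84 and 5.57 with nonSDS purified and 5.04 and 3.59 with nonSDS unpurified buffer. Replicate 1 of the SDS protocol was thus the only one above 5.57. C16orf54 had between 10 and 15 reads at its summit, and AHNAK, a large scaffold protein, had between 17 and 24.

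**Figure D1:**
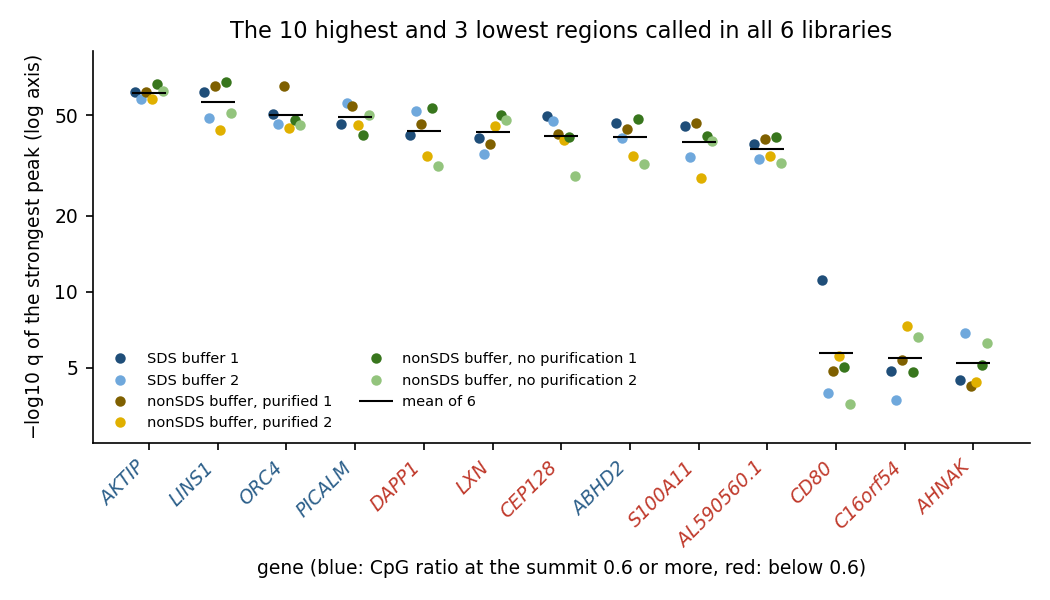
The −log10 q of the strongest peak (vertical log axis) in each of 6 libraries (points) and their mean (bars) for the 10 strongest and 3 weakest members called in all 6 libraries. Means run from 61.5 at AKTIP to 36.7 at AL590560.1 among the strongest and are below 6 in the last 3, and gene names are blue where the 500 bp around the summit had a CpG ratio of 0.6 or more (AKTIP, LINS1, ORC4, PICALM and ABHD2).

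Over all 474 members, the summit lay within the 1 kb window of the gene start in 376. Of the other 98 it lay downstream in 71 and upstream in 27. The 500 bp around the summit had a ratio of 0.6 or more in 46 members, and 45 of these had the summit outside the window, 42 of them downstream. Starts of CpG-rich coding transcripts within 1 kb were frequent at members of this kind. Of the 50 members whose CpG-poor starts all had such a neighbour, 35 had a CpG-rich summit, against 11 of the 424 others. The members with both a summit inside the window and a ratio below 0.4 around it numbered 341. Of these, 115 were called in all 6 libraries, a share close to the 35.5% of all regions. All class comparisons were therefore also made without the 177 CpG-poor starts near a CpG-rich transcript start, and these values are given beside the main ones. AKTIP and LINS1, at 1167 and 1046 bp from such a start, were beyond 1 kb and were not left out.

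A peak was rare at CpG-poor starts. The share of CpG-poor starts with a peak was 5.06% and 4.69% in the SDS libraries, 5.47% and 4.12% in the nonSDS purified libraries and 5.37% and 5.05% in the nonSDS unpurified libraries. Of CpG-rich starts, 68.8% and 66.7%, 71.4% and 67.9%, and 70.9% and 70.7% had one. The classes did not overlap in any library. The mean share was 4.96% ± 0.494 against 69.4% ± 1.89 (SD, n = 6), a difference of -64.4 percentage points, lower in 6 of 6 libraries (exact two-sided sign-flip permutation test over libraries, p = 0.03125, the smallest that 6 libraries allow, and 0.03125 after Benjamini-Hochberg adjustment over 7 class comparisons). Without the starts near a CpG-rich transcript start the CpG-poor share was 4.57% ± 0.507.

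Below the limit the share was nearly level up to a ratio of 0.3 and higher from 0.3 to 0.4. It was 4.07% on average for ratios up to 0.1, 4.04% from 0.1 to 0.2, 4.75% from 0.2 to 0.3 and 7.20% from 0.3 to 0.4. Libraries ranged from 3.40% to 4.46% in the first of these bins and from 5.50% to 8.30% in the last, so these bins did not overlap. Beyond the limit the share was 14.5% from 0.4 to 0.5 and 34.8% from 0.5 to 0.6, and it reached 77.5% at ratios of 1 or more. The GC content of CpG-poor windows did not follow the calls in this way. Its median was 46.1% for the 160 starts with a peak in all 6 libraries and 47.6% for the 5164 starts without a peak. The median ratio was 0.232 and 0.214, respectively.

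**Figure D2:**
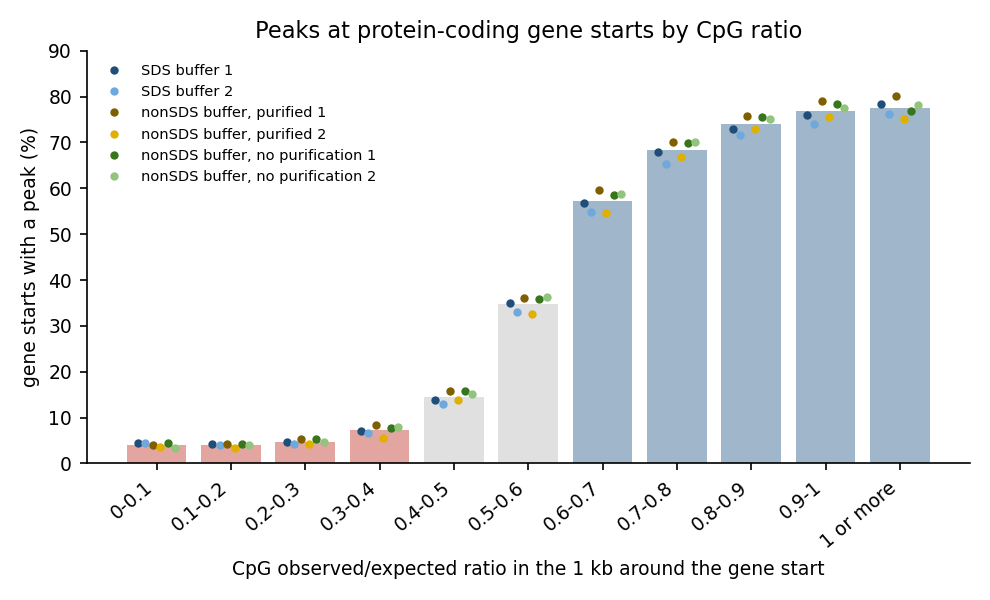
Share of gene starts with a peak (vertical axis, %) by the CpG ratio of the 1 kb around the start, for 6 libraries (points) and their mean (bars), with CpG-poor bins in red, the bins between in grey and CpG-rich bins in blue. The share stayed between 3.34% and 8.30% in the 4 CpG-poor bins and was 54.6% or more in every library above 0.6.

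Where a CpG-poor start had a peak, the peak was weaker and narrower than at CpG-rich starts and resembled distal peaks more closely. Distal peaks are autosomal ones with no part within 1 kb of a coding transcript start. The median −log10 q of peaks at CpG-poor starts was 9.23 and 9.03 in the SDS libraries, 9.03 and 8.80 in the nonSDS purified libraries and 9.19 and 8.92 in the nonSDS unpurified libraries. At CpG-rich starts it lay between 14.5 and 18.1, above every CpG-poor value. The mean difference was -7.59 ± 1.33 (SD of the 6 differences, exact sign-flip permutation p = 0.03125). Expressed as reads, the median peak had 21 to 24 at the summit at CpG-poor starts and 28 to 34 at CpG-rich starts. The median width was 394.5 bp ± 22.4 against 616 bp ± 36.2 (SD, n = 6, exact sign-flip permutation p = 0.03125).

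Against distal peaks the members had a slightly higher −log10 q and were slightly wider, while their fold enrichment was much the same. The median −log10 q exceeded that of distal peaks in 6 of 6 libraries, by 0.83 ± 0.113 on average (9.03 against 8.20), and the median width by 35.4 bp ± 12.6 (exact sign-flip permutation p = 0.03125 each). The median fold enrichment over the local background was 5.46 ± 0.0857 for the members and 5.48 ± 0.110 for distal peaks (SD, n = 6). The members were lower in 4 libraries, equal in 1 and higher in 1, and this measure was not tested. The size of the difference in −log10 q and width depended on which peaks were counted. With only the peaks whose summit lay in the window it was 0.313 in −log10 q and 15.9 bp in width. It also rested in part on the regions shared with CpG-rich transcript starts. Without them it was 0.28 ± 0.167 in −log10 q and 21.3 bp ± 13.3 in width, with the smallest differences of a library at 0.0164 and 6.5 bp (exact sign-flip permutation p = 0.03125 each).

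Peaks at CpG-poor starts were found again less often in the other library of the same protocol. The share with an overlapping peak in the replicate was 74.7% and 81.5% for the SDS libraries, 64.8% and 85.7% for the nonSDS purified libraries and 75.2% and 80.2% for the nonSDS unpurified libraries. Replicate 2 had the higher share in each protocol, and it was also the one with fewer peaks. At CpG-rich starts the share was 90.4% to 95.2%, and for distal peaks it was 72.0% ± 7.56. The difference from CpG-rich starts was -15.8 percentage points ± 5.63 (77.0% ± 7.26 against 92.9% ± 1.96, SD, n = 6, exact sign-flip permutation p = 0.03125). The 6 values come from 3 pairs of libraries, each compared in both directions, so they are not fully independent.

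The CpG-poor and CpG-rich peaks also differed in strength, which moved with this share. Among peaks with a −log10 q under 5, 42.4% ± 8.72 were found again at CpG-poor starts, 57.2% ± 10.2 at CpG-rich starts and 40.4% ± 11.4 among distal peaks. From 5 to 10 the shares were 67.0%, 80.1% and 63.1%, and from 10 to 20 they were 95.5%, 97.8% and 93.4%. At 20 or more, 100% of 34 to 53 peaks per library at CpG-poor starts were found again. Weak peaks under 10 made up 13.4% and 42.7% of the peaks at CpG-poor starts (under 5, and from 5 to 10), against 5.33% and 21.3% at CpG-rich starts. These differences within bins of strength were not tested.

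In terms of merged regions, 187 of the 474 members (39.5%) were called in all 6 libraries. Among all 56447 regions this share was 35.5%, so the members as a whole stood near the background, while it was 74.8% of CpG-rich promoter regions and 27.1% of 41854 distal regions. Without the regions at CpG-rich transcript starts it was 152 of 424 members (35.8%). At the other end 115 members (24.3%) were called in 1 library, against 27.4% of all regions, 6.38% of CpG-rich promoter regions and 31.7% of distal regions. Replicate 1 of the nonSDS purified protocol contributed 34 of these 115 and replicate 2 contributed 7, and these were also the libraries with the most and the fewest peaks. Members called in 1 library had a median width of 241 bp and a median −log10 q of 5.14, compared with 733 bp for the merged regions and a median of the mean −log10 q of 11.95 for those called in all 6.

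**Figure D3:**
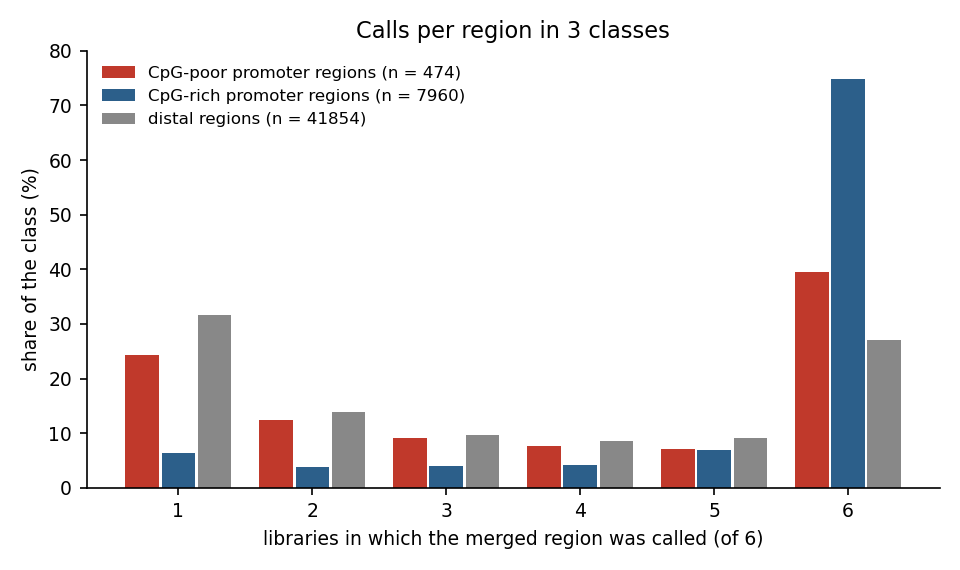
Share of regions (vertical axis, % of the class) called in 1 to 6 libraries (horizontal axis) for CpG-poor promoter regions (red, n = 474), CpG-rich promoter regions (blue, n = 7960) and distal regions (grey, n = 41854). Of CpG-poor promoter regions 39.5% were called in all 6 libraries, between distal (27.1%) and CpG-rich promoter regions (74.8%).

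The summits of peaks at CpG-poor starts centred on the gene start, with a wider spread. On average 21.4% of them fell in the 100 bp before the start and 19.0% in the 100 bp after it, against 31.3% and 22.6% at CpG-rich starts. Within 100 bp on either side lay 40.5%, 39.6%, 43.4%, 38.1%, 40.3% and 41.3% of the CpG-poor summits in the libraries SDS 1 and 2, nonSDS purified 1 and 2, and nonSDS unpurified 1 and 2. At CpG-rich starts this share was between 53.2% and 54.5%. The mean difference was -13.5 percentage points ± 1.59 (SD of 6 differences, exact sign-flip permutation p = 0.03125), and -9.32 ± 1.78 without the starts near a CpG-rich transcript start (same exact test, p = 0.03125). In the mean a second rise lay downstream, where 4.50% of CpG-poor and 1.34% of CpG-rich summits fell between 600 and 700 bp. It rested on 10 to 16 CpG-poor summits per library. In nonSDS purified 1 this bin held 3.29%, below the bins before and after it (3.62% and 3.95%). The summits of PICALM and ORC4 lay between 600 and 700 bp downstream.

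**Figure D4:**
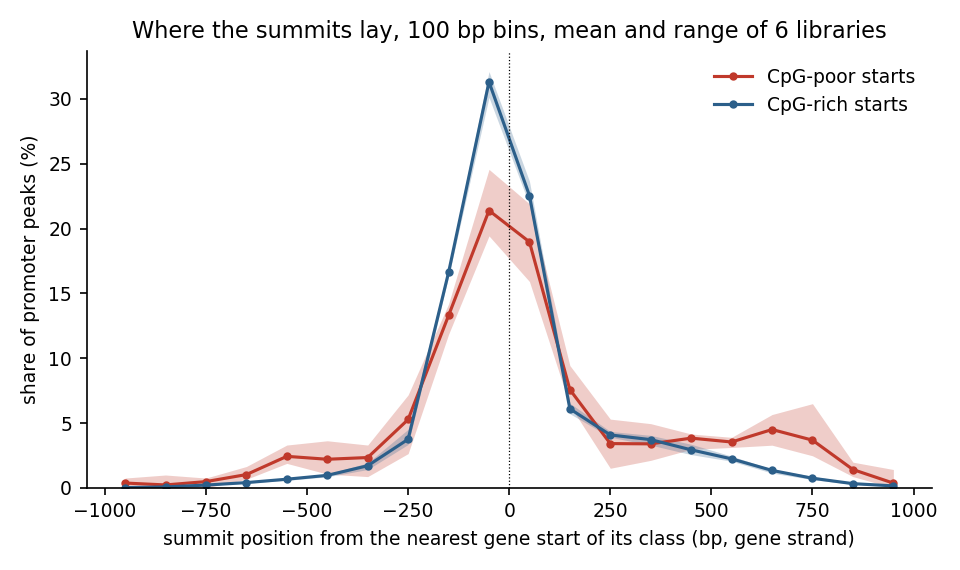
Share of promoter peaks (vertical axis, %) whose summit fell in each 100 bp bin around the nearest gene start of its class (horizontal axis, bp along the gene), as the mean (line) and range (band) of 6 libraries. Both mean profiles peak just upstream of the start, at 21.4% for CpG-poor and 31.3% for CpG-rich starts. In nonSDS purified 1 and nonSDS unpurified 2 the highest CpG-poor bin was the one just downstream. Only the mean CpG-poor profile has a second rise, of 4.50%, between 600 and 700 bp downstream, from 10 to 16 summits per library.

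The starts with and without a peak were then read by gene groups. GM12878 is a B cell line, and its defining markers were unevenly covered. MS4A1, which encodes CD20, had a peak in all 6 libraries, CD79A in 4 and CD79B in 1. PAX5, whose start is CpG-rich, had one in 1 library. None of the CpG-poor starts of CD3D, CD3E and CD3G of T cells, HBB and KLF1 of erythroid cells, CD14, LYZ and CSF1R of monocytes and ALB and APOA1 of liver had a peak in any library. The CD14 gene did have a peak at another coding transcript start. As a background, 8.26% of all CpG-poor starts had a peak in at least 1 library and 2.84% in all 6.

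Of 34 CpG-poor starts of B cell genes, 4 had a peak in all 6 libraries, 15 in some and 15 in none. MS4A1 was the strongest. It had −log10 q values of 25.7 and 28.6 with SDS, 26.3 and 21.4 with nonSDS purified and 16.7 and 24.9 with nonSDS unpurified buffer, with 39 to 52 reads at the summit. The protocols overlapped, and the summit lay at a median of -115.5 bp in a window with a ratio of 0.105. PTPRC, the phosphatase CD45, FCRLA, an Fc receptor-like protein, and CD80 were the others in all 6, with means of 8.14 ± 1.89, 6.76 ± 2.56 and 5.68 ± 2.75 (SD, n = 6). The PTPRC summit lay 608 bp downstream, so that only the edge of its peak reached the window. BLNK, the adaptor of the B cell receptor, TNFRSF17, the receptor BCMA, and FCRL5 were called in 4 libraries each. PTPRC, FCRLA, BLNK, TNFRSF17 and FCRL5 had 11 to 26 reads at the summit, on both sides of the median of 20 to 22 of all peaks and above the least that was called, which was 8 or 9 reads.

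Among 15 CpG-poor starts of antigen presentation genes 1 had a peak in all 6 libraries, 5 in some and 9 in none. CD74 had −log10 q values of 41.2 and 25.7 with SDS, 31.6 and 28.8 with nonSDS purified and 37.8 and 28.2 with nonSDS unpurified buffer. Replicate 1 was higher in each protocol, and the protocols overlapped. Its summit, 66.5 bp downstream of the start, lay in an exon. HLA-DRA, the class II alpha chain, was called in 3 libraries, HLA-DQB1, HLA-DPB1 and HLA-DOA in 2 and HLA-DRB1 in 1, with 11 to 16 reads each. These class II genes are polymorphic and have close copies, so their calls are uncertain.

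Interferon-stimulated genes had the largest share in all 6 libraries of the lists examined, 6 of 27, with 5 more in some and 16 in none. TRIM22, an antiviral ubiquitin ligase, had −log10 q values of 12.8 and 21.8 with SDS, 22.8 and 19.3 with nonSDS purified and 25.2 and 23.6 with nonSDS unpurified buffer. Its lowest value came from replicate 1 of the SDS protocol. SAMD9, which restricts poxviruses, had a mean of 17.9 ± 3.07, IRF9, the DNA-binding subunit of the interferon-activated complex ISGF3, 17.6 ± 3.53, and IFI44 15.3 ± 2.90. OAS2, which senses double-stranded RNA, had 11.9 ± 3.37, and MX2, a GTPase that blocks viral nuclear import, 7.99 ± 1.55 (SD, n = 6). GBP1, another interferon-induced GTPase, was called in 3 libraries and BST2, the tether of budding virions, in 2.

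Of 30 cytokine and chemokine starts, CCL3, EBI3 and IFNG had a peak in all 6 libraries, IL12B in 1 and 26 in none. CCL3, a chemokine that recruits leukocytes, had −log10 q values of 16.3 and 11.3 with SDS, 9.49 and 12.4 with nonSDS purified and 17.9 and 15.4 with nonSDS unpurified buffer. Both nonSDS unpurified values lay above both nonSDS purified ones. CCL3 has a near-identical neighbouring copy, so its counts are uncertain. EBI3, a cytokine subunit first found in cells infected with Epstein-Barr virus, had a mean of 11.3 ± 4.36, and IFNG, encoding interferon gamma, 11.1 ± 1.76 (SD, n = 6).

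Genes of other cell types and tissues had a peak in at least 1 library at shares on both sides of the 8.26% of all CpG-poor starts. The share was 13.3% for T and NK cell, 9.52% for skin, 8% for myeloid and 6.25% for erythroid and platelet starts, and 0% for liver and muscle. Of 30 T and NK cell starts none had a peak in all 6 libraries and 4 had one in some, the most being GNLY, encoding granulysin, in 4. Of 25 myeloid starts MNDA, an interferon-inducible nuclear protein, was called in all 6 with a mean of 12.9 ± 4.05 (SD, n = 6), and CLEC7A, a receptor for fungal glucans, in 3. HBD, encoding delta globin, was the 1 start called among 16 erythroid and platelet starts. IVL and LCE3A, of the cornified envelope, were each called in 1 library among 21 skin starts. Neither the 23 liver nor the 14 muscle starts had a peak. Among 401 CpG-poor olfactory receptor starts 7 had one (1.75%), of which OR4C16 was called in all 6 with a summit 607 bp downstream of the start and a mean of 18.8 ± 5.19 (SD, n = 6).

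**Figure D5:**
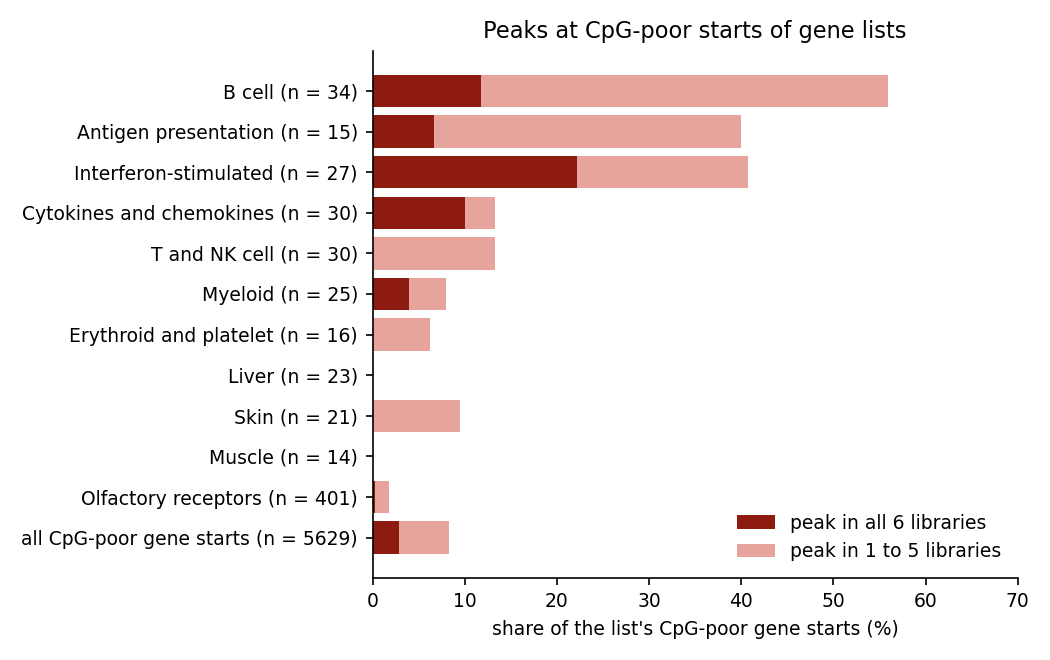
Share of the CpG-poor gene starts of each list (horizontal axis, %) with a peak in all 6 libraries (dark) and in 1 to 5 libraries (light), with the number of CpG-poor starts of each list in parentheses. The B cell, antigen presentation and interferon-stimulated lists reach 55.9%, 40.0% and 40.7% in at least 1 library, against 8.26% of all CpG-poor starts, and no bar is drawn for liver and muscle, where the share is 0.

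Among the CpG-poor starts without a peak, 897 of 5164 (17.4%) belonged to genes that had a peak at another coding transcript start, so the absence of a peak does not describe the gene as a whole. For the starts with a peak in any library, 446 of 465 genes had a peak at a coding transcript start.

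Short motifs bound by factors of B cells and by general promoter factors were then counted. The motifs were searched from 250 bp before to 50 bp after each start, on both strands, in 160 CpG-poor starts with a peak in all 6 libraries, 5164 CpG-poor starts without a peak, 6900 CpG-rich starts with a peak in all 6 and all 19229 starts. A match is a run of letters and not a measured binding site. No test was made of these shares.

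The IRF pair, GAAANNGAA, the core bound by interferon regulatory factors, was present in 20.6% of the CpG-poor starts called in all 6 libraries, in 10.5% of those without a peak, in 6.32% of CpG-rich starts called in all 6 and in 7.38% of all starts. The RUNX motif, TGTGGTTT, was present in 7.50%, 2.11%, 1.06% and 1.39% of these sets, and the PU.1 motif, GAGGAAGT, in 6.25%, 2.98%, 2.09% and 2.36%. The octamer, ATGCAAAT, bound by OCT2, had shares of 4.38%, 2.19%, 1.30% and 1.65%, and the NF-kB motif, GGANTTTCC, 3.75%, 1.55%, 1.49% and 1.53%. All 5 were thus more frequent at CpG-poor starts with a peak than at those without, with 33, 12, 10, 7 and 6 starts behind the first share. The AP-1 motif, TGANTCA, followed the same order with 17.5%, 12.3%, 3.10% and 6.38%.

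Other motifs had closer shares or the opposite order. EBF1, CCCNNGGGA, was present in 6.88% and 7.05%, the E-box, CAGCTG, in 21.9% and 20.8%, and the CCAAT box, CCAAT, in 31.9% and 36.0%. The TATA box, TATAAA, beginning 40 to 20 bp before the start on the gene strand, was present in 3.13% of CpG-poor starts called in all 6 and 6.87% of those without a peak. Motifs that contain a CpG set the classes apart as the rule would lead to, and the first 2 of them were also more frequent at CpG-poor starts with a peak than at those without. SP1, GGGCGG, was present in 17.5% of CpG-poor starts called in all 6, 13.1% of those without a peak, 74.0% of CpG-rich starts called in all 6 and 52.4% of all starts. The CpG form of the ETS motif, CCGGAAG, was present in 4.38%, 1.49%, 21.7% and 11.9% of these sets, with 7 starts behind the first share. NRF1, GCGCATGCG, was present in 0% of 160, 0.0775%, 5.13% and 2.36%. The median number of CpGs in these 300 bp windows was 4 at CpG-poor starts called in all 6, 3 at those without a peak and 27 at CpG-rich starts called in all 6.

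The protocols were compared on the same starts, to see whether SDS or purification changed what was found at CpG-poor promoters. The share of CpG-poor starts with a peak was 4.88% ± 0.264 with SDS, 4.80% ± 0.955 with nonSDS purified and 5.21% ± 0.226 with nonSDS unpurified buffer (SD, n = 2). The differences were -0.0799 percentage points for nonSDS purified minus SDS, 0.329 for nonSDS unpurified minus SDS and 0.409 for nonSDS unpurified minus purified. Of the promoter peaks of a library, 3.61% ± 0.143, 3.41% ± 0.519 and 3.67% ± 0.154 lay at CpG-poor starts (SD, n = 2, same order). No pair of protocols was separated in either measure, and the exact two-sided permutation p was 0.667 or 1 in all 6 comparisons, and 1 after Benjamini-Hochberg adjustment. With 2 libraries against 2 the smallest possible exact p is 0.333, so this design could not show a difference, and none of these values shows that the protocols act alike.

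Few members were specific to a protocol, that is, called in both of its libraries and in neither library of the protocol it was compared with. For nonSDS purified over SDS there were 4 (0.939% of 426), against 1.83% of all regions, and for SDS over nonSDS purified 13 (3.05%), against 3.2%. For nonSDS unpurified over SDS there were 9 (2.09% of 431), against 2.4%, and in the other direction 10 (2.32%), against 2.82%. For nonSDS unpurified over purified there were 14 (3.18% of 440), against 2.7%, and in the other direction 7 (1.59%), against 1.76%. The members thus stood near the background in 5 of these 6 counts. The first was lower, but it rests on 4 regions, and none of these counts was tested. Of CpG-rich promoter regions the shares were 1.23%, 0.633%, 1.81%, 0.439%, 1.16% and 0.575% in the same order.

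The strongest member in each direction, by the lower −log10 q of its 2 libraries, had values between 5.44 and 11.6. For nonSDS purified over SDS it was NEUROD4, a neuronal transcription factor, with −log10 q values of 8.38 and 5.44 and with 16 and 12 reads. For SDS over nonSDS purified it was ENSG00000284969, with 7.17 and 6.77, which was also called in replicate 1 of the nonSDS unpurified protocol. For nonSDS unpurified over SDS it was IL12B, a subunit of interleukin 12, with 11.6 and 10.1. Its summit lay at -879 bp from the start, only 1 library had a peak that reached the window itself, and replicate 1 of the nonSDS purified protocol also called the region. For SDS over nonSDS unpurified it was HBD, with 6.11 and 8.34. For nonSDS unpurified over purified it was AQP9, a glycerol channel, with 8.36 and 7.08, and for the reverse it was LGALS1, a galectin, with 11.0 and 7.68. LGALS1 was also called in replicate 1 of the SDS protocol. Where called, each of these summits had 12 to 26 reads.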

How the data were processed

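Bulk ATAC-seq peaks of fixed GM12878 cells were analysed in 6 libraries, 2 for each of 3 reverse crosslinking protocols, grouped by the sample labels. After adapter trimming, the authors aligned to hg19 using Bowtie2 2.1.0 (per the submitters' processing notes). Read pairs had to be proper and confidently mapped, and duplicates (Picard 1.79) and mitochondrial pairs were discarded. Peak calling was by MACS2, of a version not given in the sources used here, in narrow mode with a q limit of 0.01. The methods describe pooled reads per condition, but there is 1 list per library here, and each library was treated as 1 replicate.

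The deposited lists give, for each summit, its fold enrichment relative to local background, a ratio, as MACS2 wrote it for the authors. They also give the −log10 p and −log10 q that MACS2 computed for the authors, and a deposited score, which is 10 times the −log10 q truncated to a whole number and was not used further. Whether a weak summit passed the q limit depends on depth. Reads at a summit were solved from the fold enrichment and p value, and matched the listed −log10 p within 0.001 for 100% of peaks. The lowest local background, a relative depth, was 1.51 to 1.86 reads. Totals of reads are unknown.

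Peaks were merged where they overlapped or adjoined. Gene starts were those of GENCODE version 44 gene records on GRCh37, with windows of 500 bp on each side and CpG ratio limits of 0.4 and 0.6. An overlap of 1 bp counted. Members, gene lists and motifs were chosen with earlier results of these data known. Genes were named by rule. These were the 10 highest and 3 lowest members by mean −log10 q among those called in all 6 libraries and at no CpG-rich start. The strongest protocol-specific member of each direction was named too. Of the gene lists, the starts called in all 6 libraries are described. The described starts called in fewer libraries did not always follow the order of mean −log10 q. Exceptions are stated. Some genes and sequences that the rule names are not reported here.

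Class comparisons used exact two-sided sign-flip permutation tests over libraries, adjusted by Benjamini-Hochberg over 7. Protocol comparisons used exact two-sided permutation tests of 2 libraries against 2, adjusted over 6. The alternatives were other ratio limits (0.3 and 0.75), windows, peak thresholds and overlap rules, an equal number of peaks, left-out starts or genes, left-out libraries and a replicate block. The overlap step was compared with bedtools 2.31.1, and the tests were run on simulated data first. Python 3.11.15, NumPy 2.4.6, pandas 2.3.3 and samtools 1.23.1 were used.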

Additional observations from a re-analysis of the deposited data

How the results depend on the processing

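All 7 class comparisons kept their direction and stayed past the threshold under each of 9 alternatives (63 values in all). The CpG-rich limit of 0.75 does not enter the comparisons with distal peaks, so their values under it are the same by construction. The share of starts with a peak ranged from -68.7 to -61.4 percentage points, the difference in −log10 q from -8.32 to -6.40, that in width from -240.5 to -188.5 bp, that in peaks found in the replicate from -18.5 to -13.3 and that in central summits from -25.5 to -7.99. Against distal peaks the difference ranged from 0.282 to 1.60 in −log10 q and from 15.9 to 57.4 bp in width.

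With a library left out, 5 libraries (4 for peaks found in the replicate) cannot give an exact p below 0.0625 (0.125), so the threshold cannot be reached. The differences then ranged from -64.9 to -64.1 (share with a peak), -8.02 to -7.32 (−log10 q), -226.8 to -215.4 bp (width), -16.8 to -15.0 (found in the replicate), -13.9 to -13.0 (central summits), and, against distal peaks, 0.805 to 0.870 (−log10 q) and 31.7 to 38.5 bp (width).

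None of the 78 recomputed protocol values could pass the threshold, since 2 libraries against 2 cannot give an exact p below 0.333. With a library left out or with the replicate block the smallest p is no lower, and these values were not adjusted. The 78 values are therefore read by their direction only, and 11 changed sign. For nonSDS purified minus SDS the share of starts with a peak, -0.0799, was 0.151 with an equal number of peaks, 0.107 without replicate 1 of the SDS protocol, and it was 0.595 without replicate 2 and -0.755 without replicate 1 of the nonSDS purified protocol. The share of promoter peaks at CpG-poor starts was 0.169 and -0.565 without these libraries. For nonSDS unpurified minus SDS that share, 0.0624, was -0.0528 with a limit of 0.3, -0.0393 with a −log10 q minimum of 5 and -0.0194 by summits, and it ranged from -0.0462 to 0.171 with libraries left out. For nonSDS unpurified minus purified the 2 measures were -0.266 and -0.107 without replicate 2 and 1.08 and 0.627 without replicate 1 of the nonSDS purified protocol. The cause was not tested. The CpG-rich limit of 0.75 enters no protocol comparison and was not run there.

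With the replicate number as a block the mean differences are the same by construction (0.329 for nonSDS unpurified minus SDS), and 2 pairs cannot give an exact p below 0.5. Over 187 members the replicate differences in fold enrichment of the protocols had correlations of 0.164, -0.00931 and 0.0690. These correlations cannot settle whether libraries of the same number belong together. The labels do not say so either, and it was not tested.

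With a limit of 0.3, 123 of 327 members were called in all 6 libraries, a share of 37.6%, against 35.5% of all regions. The counts of protocol-specific members summed to 57 over the 6 directions and to 43 to 57 in the alternatives. A region can count in more than 1 direction, so these sums are not numbers of separate regions. By direction the share of members was 0.939% to 3.18%, against 1.76% to 3.2% of all regions. In the alternatives it was 1.03% to 4.27%, against 1.70% to 3.33% of all regions.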

Other observations

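The rule took autosomes only. On chromosome X, 239 gene starts were CpG-poor by the same limit, and 5.23% ± 0.688 of them had a peak (SD, n = 6), with libraries between 4.18% and 6.28%. Of 425 CpG-rich starts on chromosome X, 58.3% ± 1.14 had one. A peak in all 6 libraries was found at 7 of these 239 CpG-poor starts. That is a share close to the 2.84% of autosomal CpG-poor starts (160 of 5629). The 7 were ASB9, ENSG00000285171, IL2RG, CXCR3, P2RY10, GPR174 and ARMCX3. IL2RG encodes the common gamma chain of interleukin receptors, CXCR3 is a chemokine receptor of lymphocytes, and P2RY10 and GPR174 are receptors for lysophospholipids. The other genes of the set are not described here. All 7 were listed because they make up the whole set, and no test was made of it.

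The 2019 autosomal starts with a ratio between 0.4 and 0.6 lay between the classes in calls. Of these, 383 (19.0%) had a peak in all 6 libraries, 319 (15.8%) in some and 1317 (65.2%) in none. A CpG-rich coding transcript start lay within 1 kb of 48.7% of those with a peak and of 20.3% of those without, against 10.5% and 2.48% of CpG-poor starts.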
